A study of Mus musculus with 12 samples.

Results

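The 47 genes described here drive, carry out or restrain the cell division cycle: 9 regulators of G1 and of entry into S phase, 14 genes of S phase and DNA replication, 19 genes of G2 and mitosis, and 5 inhibitors of cyclin-dependent kinases (CDKs). Their probe sets were found by gene symbol in the annotation of the array, which listed 105 probe sets for 46 of the 47 genes. Of these genes, 45 had a probe set that passed the filter on low signal, among 12845 genes tested in all. The thymidylate synthase gene Tyms had 4 probe sets and none passed, and the expression of Ccnb1, the cyclin B1 gene, was not analysed here.

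RNA came from cells of the mouse neural tube at E12.5 of embryonic development, sorted by fluorescence and hybridised to 12 Affymetrix Mouse 430 2.0 arrays. R+ were YFP-positive serotonin (5HT) neurons and R- were YFP-negative cells of the rostral domain, which runs from the mesencephalic flexure to the pontine flexure. C+ were YFP-positive 5HT neurons and C- were YFP-negative cells of the caudal domain, from the pontine flexure to the spinal cord. All embryos carried the transgene ePet-EYFP, in which an enhancer of Pet-1, a transcription factor gene of serotonin neurons, drives the fluorescent protein. A population is thus what that enhancer marked at the time of sorting, and R- and C- hold every other cell of the domain, dividing or not. Each population had 3 biological replicates of 200000 cells, and whether these were separate litters is not stated in the labels. The tests therefore see only the spread among these arrays, which may be technical in part.

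Signals below are the deposited MAS5 intensities, listed in the order of replicates 1, 2 and 3. The median signal of an array lay between 93 and 121, so that members with signals near or under this level were dim. Differences are means of log2(signal + 10), the population named first minus the other, ± SE from a limma fit, and adjusted p is that of limma's moderated test with Benjamini-Hochberg adjustment over all genes. A gene was called higher or lower where adjusted p was under 0.05. With 3 arrays a population, precision was limited by their number.

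In the division cycle, D-type cyclins with CDK4 or CDK6 carry a cell through G1 and release E2F transcription factors, which switch on the genes that license and copy DNA. Cyclin A and cyclin B with CDK1 then bring the cell into mitosis, where kinases, checkpoint proteins and centromere proteins control the separation of chromosomes, and the CDK inhibitors hold these kinases in check. In the embryonic neural tube progenitors divide next to the ventricle, and cells leave the cycle as they become neurons. Pet-1 begins to be expressed in serotonin neuron precursors after their last division.

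Cell cycle genes were lower in YFP-positive than in YFP-negative cells of both domains. In R+ against R-, 38 of the 45 measured members were called lower and 0 higher, where 7.86% of all genes tested were called lower and 4.34% higher. In C+ against C-, 34 were called lower and 0 higher, where 7.39% of all genes were called lower and 5.71% higher. The median member differed by -1.60 between R+ and R- and by -1.44 between C+ and C-, and the median over all genes by -0.01 and -0.04 in the same order. All 3 R+ arrays lay below all 3 R- arrays for 41 members, against 16.4% of all genes, and all 3 C+ arrays below all 3 C- arrays for 40 members, against 15.1% of all genes. With the replicate number as a block, 39 members were called lower in each domain, against 12.3% of all genes in both. Some dim members, such as Cdc45 and Aurkb, passed the filter on low signal through YFP-negative arrays alone. Such genes entered the test by their YFP-negative signals, so their calls as lower are not independent of the filter. In RNA of sorted populations, fewer cells of a type and less RNA per cell cannot be told apart.

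**Figure D1:**
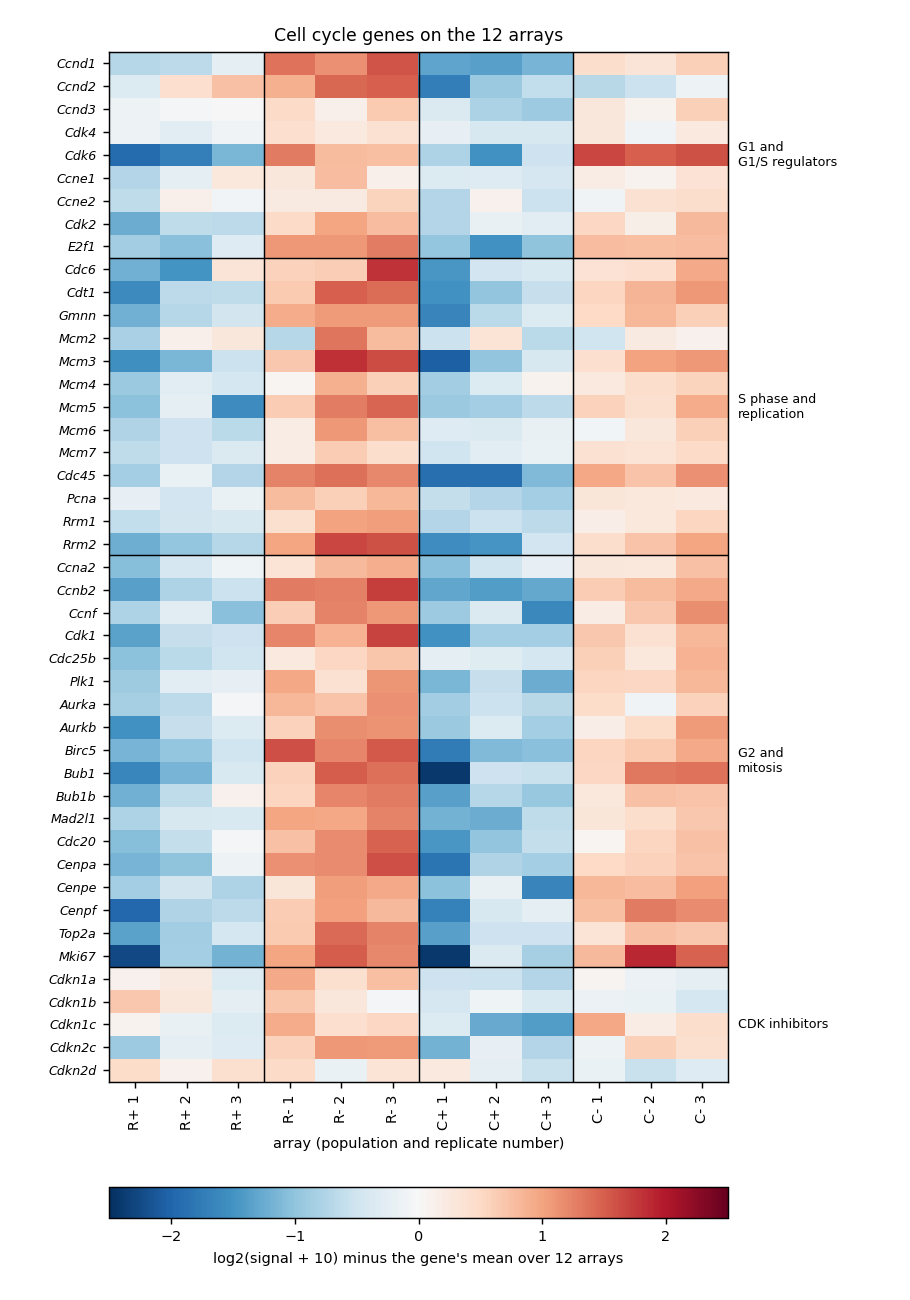
Level of the 45 measured cell cycle genes (rows, grouped by list) on each of the 12 arrays (columns), as log2(signal + 10) minus the gene's mean over the 12 arrays, from blue (below the mean) to red (above it). The R+ and C+ columns are mostly blue and the R- and C- columns mostly red in the G1, S and G2 and mitosis lists, and the inhibitors at the bottom are paler and less uniform.

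The G2 and mitosis list was the most uniform, with 18 of 18 measured members called lower in R+ and 17 of 18 in C+. For S phase and replication these counts were 12 and 9 of 13, for the G1 regulators 6 and 6 of 9, and for the inhibitors 2 and 2 of 5. As a share of the mean signal in R-, the R+ signal had a median of 28.3% over the G2 and mitosis genes, 28.4% over the S phase genes, 51.2% over the G1 regulators and 60.6% over the inhibitors. The C+ signal as a share of C- had medians of 31.3%, 36.4%, 53.0% and 70.1% over the same lists.

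Among the G1 regulators, Ccnd1 and Cdk6 had large differences and the cyclin E genes were not called. Ccnd1 (probe set 1448698_at) encodes cyclin D1, the partner of CDK4 and CDK6. Its signals were 1289, 1341 and 1787 on the R+ arrays, against 5413, 4659 and 6279 on the R- arrays, and 836, 820 and 931 on the C+ arrays, against 2862, 2628 and 3188 on the C- arrays. The groups did not overlap in either domain, and the highest YFP-positive signal lay below the lowest YFP-negative signal of any array. The differences were -1.89 ± 0.16 (adjusted p = 9.6e-07) in the rostral and -1.73 ± 0.16 (adjusted p = 2.03e-06) in the caudal domain.

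Cdk6 (1435338_at), a kinase that acts with D-type cyclins, had signals of 57, 68 and 105 in R+, against 614, 431 and 419 in R-, and 139, 79 and 169 in C+, against 796, 712 and 759 in C-. The YFP-positive signals lay around the median signal of the arrays and the YFP-negative signals well above it, with differences of -2.54 ± 0.28 (adjusted p = 2.15e-05) and -2.52 ± 0.28 (adjusted p = 1.98e-05). The related kinase Cdk4 (1422439_a_at) was bright in all populations, at 5696, 5111 and 5866 in R+, against 8332, 7385 and 8116 in R-, and 5357, 4683 and 4673 in C+, against 7559, 5792 and 7306 in C-. Cdk4 in YFP-positive cells thus stood at 70.0% of R- and 71.2% of C-, with differences of -0.52 ± 0.13 (adjusted p = 0.0132) and -0.48 ± 0.13 (adjusted p = 0.0188). The Cdk4 calls were lost in 3 of the 23 alternative settings for R+ against R- and in 7 for C+ against C-.

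E2f1, the transcription factor that switches on S phase genes, was at 146, 128 and 217 in R+, against 595, 589 and 677 in R-, and at 135, 89 and 132 in C+, against 476, 466 and 473 in C-. No YFP-positive array reached a YFP-negative one, and the differences were -1.89 ± 0.23 (adjusted p = 4.21e-05) and -1.93 ± 0.23 (adjusted p = 3.09e-05). Cdk2, the kinase that pairs with cyclins E and A, was lower, with differences of -1.60 ± 0.24 in R+ and -0.89 ± 0.24 in C+ and adjusted p of 0.000308 and 0.0223. Ccne1 and Ccne2, the E-type cyclins, had differences between -0.53 and -0.63 that were not called in either domain (adjusted p from 0.19 to 0.352). A further Ccne1 probe set was called lower in R+ against R- (-1.32 ± 0.32, adjusted p = 0.0193 in a fit of all probe sets) and not in C+ against C- (-0.65 ± 0.32, adjusted p = 0.292).

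The S phase list holds the genes that license replication origins, build the replication fork and make nucleotides. Rrm2 (1448226_at), the regulated subunit of ribonucleotide reductase, had signals of 312, 373 and 449 in R+, against 1485, 2382 and 2253 in R-, and 244, 261 and 527 in C+, against 1008, 1221 and 1477 in C-. Every YFP-positive array lay well below every YFP-negative array, with differences of -2.39 ± 0.27 (adjusted p = 2.62e-05) and -1.89 ± 0.27 (adjusted p = 0.000218). Its partner subunit Rrm1 differed less, by -1.31 ± 0.17 and -0.97 ± 0.17 (adjusted p = 0.000111 and 0.00141). Pcna (1417947_at), the sliding clamp of DNA polymerases, was at 4936, 4117 and 5084 in R+, against 9888, 8688 and 10127 in R-, and at 3793, 3451 and 3176 in C+, against 7052, 6869 and 6813 in C-. Pcna was thus still bright in YFP-positive cells, at 49.3% of R- and 50.3% of C-, with differences of -1.02 ± 0.12 (adjusted p = 3.35e-05) and -0.99 ± 0.12 (adjusted p = 3.74e-05).

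The minichromosome maintenance genes Mcm2 to Mcm7 encode the subunits of the replicative helicase. Mcm3 (1420028_s_at) had the largest difference of the 6, with signals of 172, 228 and 356 in R+, against 832, 1867 and 1616 in R-, and 119, 258 and 390 in C+, against 700, 1046 and 1108 in C-. The ranges were wide within each group but did not overlap, and the differences were -2.45 ± 0.39 (adjusted p = 0.000555) and -1.97 ± 0.39 (adjusted p = 0.00291). Mcm5 differed by -2.06 ± 0.31 and -1.44 ± 0.31, Mcm7 by -0.93 ± 0.13 and -0.71 ± 0.13, and both were called lower in both domains. Mcm4 (-1.07 ± 0.26, adjusted p = 0.0116) and Mcm6 (-1.32 ± 0.21, adjusted p = 0.000613) were called in R+ against R-. In C+ against C- Mcm4 differed by -0.80 ± 0.26 (adjusted p = 0.0545) and Mcm6 by -0.56 ± 0.21 (adjusted p = 0.107), and both were called with the replicate block (adjusted p = 0.0014 and 0.0198). Mcm2 was not called by its brightest probe set, whose signals overlapped (1111, 2147 and 2380 in R+, against 1195, 4996 and 3418 in R-). Its other kept probe set was called lower in both domains, at 288, 300 and 323 in R+, against 751, 980 and 992 in R-, and at 335, 289 and 260 in C+, against 823, 472 and 1004 in C-, so the 2 probe sets of this gene disagreed.

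Of the licensing factors, Cdt1, which loads the helicase, was lower, with differences of -2.14 ± 0.30 in R+ and -1.85 ± 0.30 in C+ (adjusted p = 0.000175 and 0.00059). Its inhibitor geminin (Gmnn) was lower, with differences of -1.81 ± 0.28 and -1.52 ± 0.28 (adjusted p = 0.000448 and 0.00176). Cdc6, a further loading factor, was dim, with 33, 25 and 114 in R+, against 137, 141 and 335 in R-, and 26, 61 and 66 in C+, against 117, 123 and 180 in C-. The Cdc6 difference was called in R+ (-1.79 ± 0.53, adjusted p = 0.0404) but lost in 8 of 23 alternatives, and in C+ it was called with the replicate block alone (-1.35 ± 0.53, adjusted p = 0.126 without it and 0.0257 with it). Cdc45, which activates the helicase, was also dim, with 39, 69 and 43 in R+, against 198, 219 and 194 in R-, and 14, 14 and 31 in C+, against 162, 135 and 184 in C-. Its fitted difference was -1.86 ± 0.41 in R+ (adjusted p = 0.00669) and -2.56 ± 0.41 in C+ (adjusted p = 0.000521), where the YFP-positive signals lay near the offset and their size is uncertain. Cdc45 passed the filter through YFP-negative arrays alone, so its calls are not independent of the filter. Tyms, below the filter, had signals of 31, 29 and 68 in R+, against 49, 60 and 113 in R-, and 31, 89 and 94 in C+, against 38, 72 and 53 in C- on its brightest probe set, and was not tested.

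Promoters of the members were read to see whether genes of a list shared sequence words known from cell cycle promoters. RefSeq windows of 300 bases on GRCm38.p6, from 250 bases before to 50 bases after a transcription start, were found for 39 of the 47 genes. The E2F words searched were TTTCCCGC, TTTCGCGC, TTTGCCGC and TTTGGCGC, the cell cycle homology region (CHR) word was TTTGAA, and the CCAAT word was CCAAT, all on both strands. An E2F word stood in 6 of 12 S phase genes, 1 of 17 G2 and mitosis genes (5.88%), 1 of 6 G1 regulators and 0 of 4 inhibitors, against 2.6% of 27025 genes with a window. A CHR word stood in 11 of 17 G2 and mitosis genes (64.7%), 2 of 12 S phase genes (16.7%), 0 of 6 G1 regulators and 0 of 4 inhibitors, against 20.2% of all genes. CCAAT was in 15 of 17 G2 and mitosis genes (88.2%), in 9 of 12 S phase genes (75.0%), in 3 of 4 inhibitors (75.0%) and in 2 of 6 G1 regulators (33.3%), against 41.1% of all genes. It was thus as frequent in the inhibitors with a window as in the S phase genes. These counts describe letters in a window and not binding. Among the 91 matches there was 1 overlapping pair of different motifs and there were 2 of one motif.

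The promoters of Mcm3 and Mcm6 are shown as S phase genes with E2F words, with E2F and CCAAT words of either strand in capitals, each read 5′ to 3′ on the gene's strand. That of Mcm3 lies at chr1:20820263-20820562 and that of Mcm6 at chr1:128359656-128359955, both on the minus strand. In Mcm6 a pair of E2F words of opposite strands overlap, beginning 110 and 106 bases before the start, and read as one run of capitals.
Mcm3: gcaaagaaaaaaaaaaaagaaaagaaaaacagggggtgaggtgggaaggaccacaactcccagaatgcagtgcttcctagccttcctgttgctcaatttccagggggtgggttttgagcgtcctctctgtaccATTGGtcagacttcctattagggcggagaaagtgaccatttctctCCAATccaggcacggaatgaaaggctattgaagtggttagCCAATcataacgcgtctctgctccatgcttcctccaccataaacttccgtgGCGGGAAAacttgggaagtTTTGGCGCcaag
Mcm6: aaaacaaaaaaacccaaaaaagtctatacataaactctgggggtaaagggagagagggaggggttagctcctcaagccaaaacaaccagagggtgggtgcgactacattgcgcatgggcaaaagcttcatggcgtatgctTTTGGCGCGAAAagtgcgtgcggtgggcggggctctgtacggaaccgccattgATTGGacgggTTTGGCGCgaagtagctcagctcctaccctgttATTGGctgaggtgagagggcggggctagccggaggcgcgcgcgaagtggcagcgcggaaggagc

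The G2 and mitosis genes fell together. Mki67 (1426817_at), the proliferation marker Ki-67 that coats mitotic chromosomes, had the largest difference of all members in both domains, with signals of 142, 395 and 310 in R+, against 1438, 2078 and 1674 in R-, and 127, 557 and 401 in C+, against 1270, 2661 and 2007 in C-. Replicate 1 was the lowest and replicate 2 the highest in each of the 4 populations, and YFP-positive and YFP-negative arrays did not overlap. The differences were -2.67 ± 0.45 (adjusted p = 0.000941) and -2.58 ± 0.45 (adjusted p = 0.00115).

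Ccnb2 (1450920_at), cyclin B2, the mitotic partner of CDK1, had signals of 150, 228 and 273 in R+, against 988, 964 and 1336 in R-, and 155, 144 and 158 in C+, against 621, 700 and 780 in C-. Cdk1 itself (1448314_at) was at 280, 484 and 507 in R+, against 1707, 1329 and 2350 in R-, and at 248, 398 and 397 in C+, against 1163, 948 and 1297 in C-. For both genes the YFP-positive arrays kept clear of the YFP-negative ones. Ccnb2 differed by -2.31 ± 0.22 (adjusted p = 3.46e-06) and -2.12 ± 0.22 (adjusted p = 7.18e-06), and Cdk1 by -2.06 ± 0.26 (adjusted p = 7.38e-05) and -1.70 ± 0.26 (adjusted p = 0.000411). Cyclin A2 (Ccna2) differed less, by -1.22 ± 0.26 and -1.01 ± 0.26 (adjusted p = 0.00605 and 0.0189). Ccnf, whose product targets cell cycle proteins for degradation, was dim and lower, with differences of -1.68 ± 0.38 and -1.64 ± 0.38, and Cdc25b, the phosphatase that activates CDK1, differed by -1.22 ± 0.19 and -0.91 ± 0.19.

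Among the mitotic kinases, Plk1 was lower, with differences of -1.28 ± 0.26 in R+ and -1.62 ± 0.26 in C+ (adjusted p = 0.0041 and 0.000575), and Aurka, which acts at the spindle poles, differed by -1.41 ± 0.25 and -1.01 ± 0.25 (adjusted p = 0.00138 and 0.0139). Aurkb, the kinase of the chromosomal passenger complex, was dim, with 30, 66 and 80 in R+, against 160, 243 and 237 in R-, and 50, 79 and 53 in C+, against 117, 145 and 228 in C-. It was called in R+ (-1.76 ± 0.40, adjusted p = 0.00896) and was the single gene of the list not called in C+ (-1.27 ± 0.40, adjusted p = 0.0525), where the replicate block gave an adjusted p of 0.0144. Aurkb, too, passed the filter through YFP-negative arrays alone. Birc5, survivin, of the same complex, was at 191, 220 and 307 in R+, against 1363, 1032 and 1287 in R-, and at 124, 199 and 207 in C+, against 641, 697 and 857 in C-, with differences of -2.33 ± 0.23 (adjusted p = 5.99e-06) and -2.01 ± 0.23 (adjusted p = 2.25e-05).

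Of the spindle checkpoint genes, Bub1 had signals of 50, 73 and 132 in R+, against 269, 521 and 472 in R-, and 25, 120 and 116 in C+, against 257, 455 and 468 in C-. It differed by -2.22 ± 0.48 and -2.23 ± 0.48 (adjusted p = 0.00623 and 0.00556), with C+ replicate 1 the lowest array. Bub1b differed by -1.60 ± 0.33 and -1.57 ± 0.33, Mad2l1 by -1.58 ± 0.19 and -1.48 ± 0.19, and Cdc20, the activator of the anaphase-promoting complex that the checkpoint restrains, by -1.69 ± 0.29 and -1.44 ± 0.29. All 3 were called in both domains. The centromere genes Cenpa (-2.08 ± 0.29 and -1.74 ± 0.29), Cenpe (-1.46 ± 0.36 and -1.83 ± 0.36) and Cenpf (-1.95 ± 0.37 and -1.84 ± 0.37) were called in both as well, as was Top2a, the topoisomerase that untangles chromosomes (-1.98 ± 0.27 and -1.38 ± 0.27). Cenpe was dim in YFP-positive cells, at 77, 103 and 82 in R+ and at 67, 127 and 40 in C+. A dim further probe set of Cenpf was not called (0.02 ± 0.44 in R+ and -1.06 ± 0.44 in C+, adjusted p = 0.992 and 0.189).

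The promoters of Mki67 and Ccnb2 are shown as mitotic genes with CHR words, with CHR and CCAAT words of either strand in capitals. The window of Mki67 is chr7:135716330-135716629 and that of Ccnb2 chr9:70421505-70421804, both on the minus strand of GRCm38.p6. Each held 2 CHR and 3 CCAAT words and no E2F word.
Mki67: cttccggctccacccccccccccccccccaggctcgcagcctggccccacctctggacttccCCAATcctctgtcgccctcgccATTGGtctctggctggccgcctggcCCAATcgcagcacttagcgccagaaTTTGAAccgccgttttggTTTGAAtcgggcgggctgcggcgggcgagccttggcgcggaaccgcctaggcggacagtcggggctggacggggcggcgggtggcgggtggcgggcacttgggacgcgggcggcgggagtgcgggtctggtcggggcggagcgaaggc
Ccnb2: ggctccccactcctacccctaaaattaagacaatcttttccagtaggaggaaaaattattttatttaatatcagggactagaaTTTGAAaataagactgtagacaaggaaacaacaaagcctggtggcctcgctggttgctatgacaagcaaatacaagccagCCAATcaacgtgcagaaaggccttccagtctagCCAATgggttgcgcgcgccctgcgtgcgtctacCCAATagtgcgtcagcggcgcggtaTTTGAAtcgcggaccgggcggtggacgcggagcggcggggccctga

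**Figure D2:**
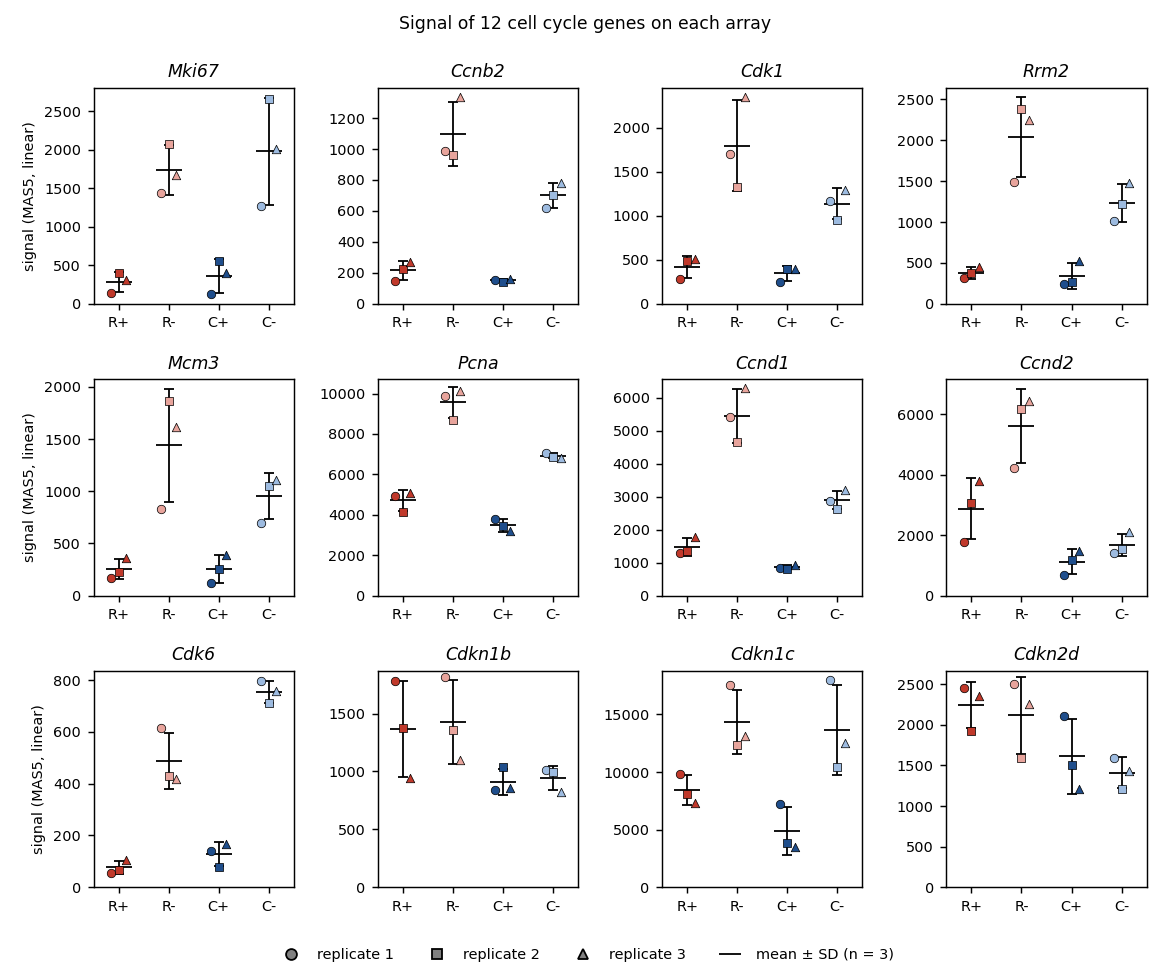
Linear MAS5 signal of 12 cell cycle genes on each array, in R+, R-, C+ and C-, with symbols for the replicate number and lines for the mean ± SD (n = 3). In 8 of the 9 genes from Mki67 to Cdk6 the YFP-positive arrays lie below the YFP-negative arrays of their domain without overlap; Ccnd2 overlaps between C+ and C-, and among the inhibitors Cdkn1b and Cdkn2d overlap in both domains.

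The calls among the CDK inhibitors were mixed. Cdkn1b and Cdkn2d, inhibitors known to accumulate in cells that leave the cycle, were not called in either domain. Cdkn1b (1434045_at) had signals of 1780, 1372 and 946 in R+, against 1815, 1358 and 1099 in R-, and 838, 1038 and 857 in C+, against 1013, 996 and 820 in C-. Cdkn2d (1416253_at) had 2450, 1926 and 2354 in R+, against 2503, 1589 and 2258 in R-, and 2112, 1511 and 1213 in C+, against 1592, 1208 and 1427 in C-. The groups overlapped for both genes. Cdkn1b differed by -0.08 ± 0.22 and -0.05 ± 0.22 (adjusted p = 0.902 and 0.931), and Cdkn2d by 0.10 ± 0.21 and 0.16 ± 0.21 (adjusted p = 0.852 and 0.705). Cdkn2d was the single member whose difference was above 0 in each domain.

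Cdkn1c (1417649_at), a CIP/KIP inhibitor, was bright in all populations and lower in YFP-positive cells, at 9845, 8065 and 7327 in R+, against 17534, 12367 and 13167 in R-, and 7236, 3864 and 3500 in C+, against 17998, 10457 and 12530 in C-. The groups did not overlap in either domain. It was called in C+ (-1.53 ± 0.25, adjusted p = 0.000679) and not in R+ (-0.76 ± 0.25, adjusted p = 0.0645), where the replicate block gave an adjusted p of 0.000294. Cdkn2c, an INK4 inhibitor of CDK4 and CDK6, was lower, with differences of -1.41 ± 0.28 in R+ and -0.99 ± 0.28 in C+ (adjusted p = 0.003 and 0.028). The C+ call of Cdkn2c was lost in 6 of 23 alternatives. Cdkn1a, a CIP/KIP inhibitor induced by p53, was at 314, 337 and 225 in R+, against 568, 384 and 493 in R-, and at 200, 195 and 171 in C+, against 305, 259 and 243 in C-. Its call in R+ (-0.71 ± 0.22, adjusted p = 0.0466) was lost in 15 of 23 alternatives, and in C+ it differed by -0.49 ± 0.22 (adjusted p = 0.18).

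The promoter of Cdkn1b is shown as one of a gene that was not called in either domain, with CCAAT words in capitals. It lies at chr6:134920151-134920450 on the plus strand and held 3 CCAAT words and neither an E2F nor a CHR word.
Cdkn1b: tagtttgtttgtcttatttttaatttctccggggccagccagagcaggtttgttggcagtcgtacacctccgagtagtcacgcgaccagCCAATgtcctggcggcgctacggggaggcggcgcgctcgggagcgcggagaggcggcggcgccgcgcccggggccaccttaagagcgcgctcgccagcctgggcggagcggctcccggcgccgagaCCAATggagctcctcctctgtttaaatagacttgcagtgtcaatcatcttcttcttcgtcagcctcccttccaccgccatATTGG

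**Figure D3:**
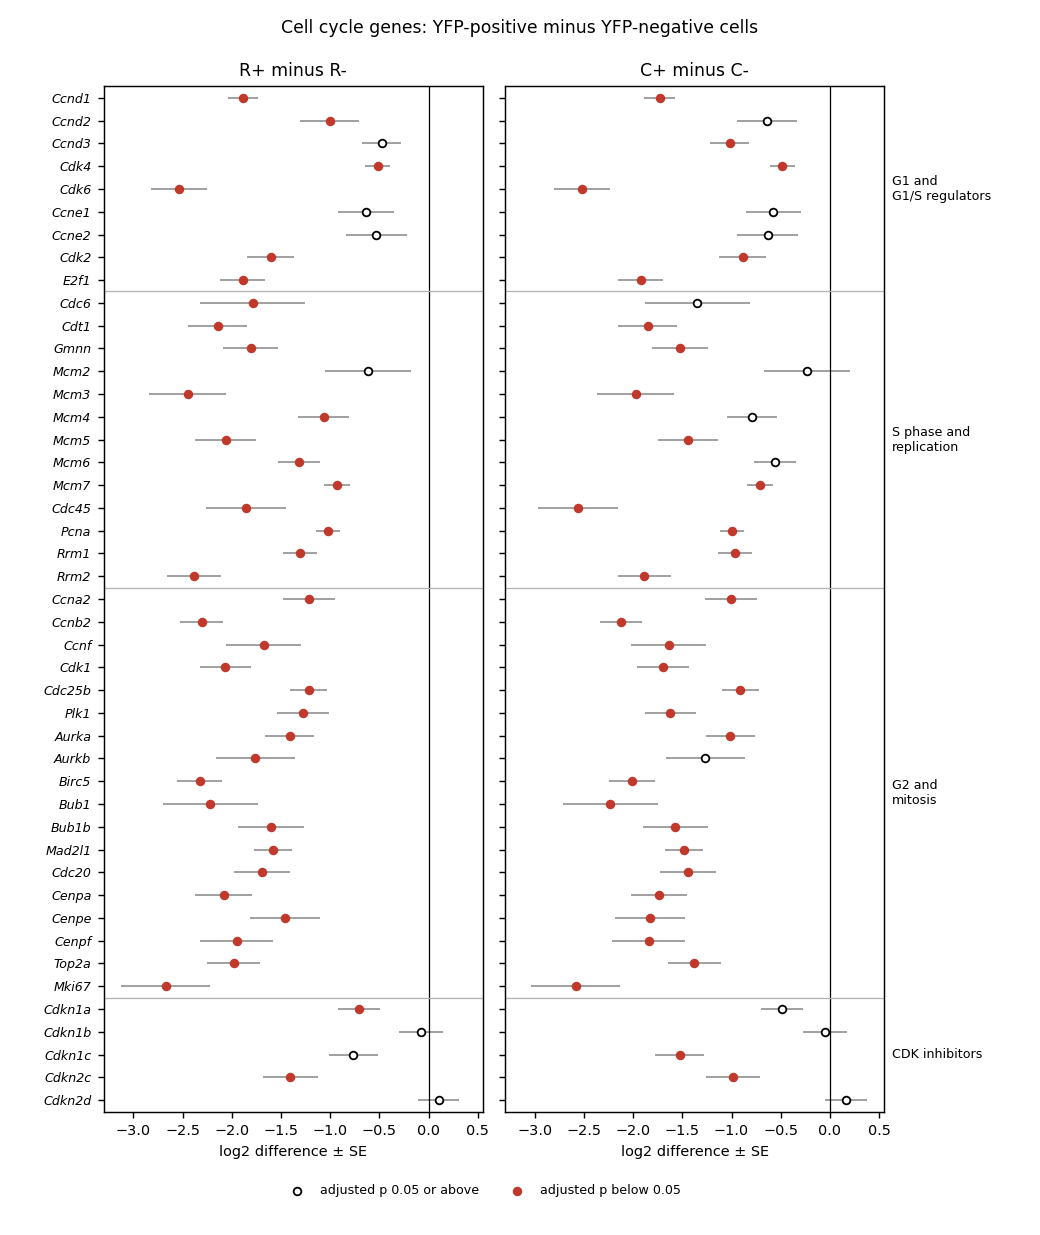
Log2 difference ± SE of the 45 measured cell cycle genes, R+ minus R- (left) and C+ minus C- (right), grouped by list. Filled points passed an adjusted p of 0.05; all points but Cdkn2d lie below 0, from -2.67 (Mki67, R+ minus R-) to 0.16 (Cdkn2d, C+ minus C-).

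The differences held within same-numbered pairs of arrays. Averaged over the 18 G2 and mitosis genes, R+ minus R- was -2.02 in replicate 1, -1.73 in replicate 2 and -1.66 in replicate 3, and C+ minus C- was -1.82, -1.32 and -1.75. For the 13 S phase genes the rostral values were -1.47, -1.72 and -1.59 and the caudal values -1.45, -1.23 and -1.20. For the 9 G1 regulators they were -1.47, -1.21 and -1.01 in the rostral domain and -1.17, -1.06 and -1.24 in the caudal domain, so each list lay below 0 in every pair. For the 5 inhibitors the values were nearer to 0, at -0.64, -0.37 and -0.70 in the rostral and -0.56, -0.45 and -0.72 in the caudal domain. Leaving out the inhibitors, 39 of 40 members were lower in all 3 pairs in each domain. The exceptions were Ccne1 in replicate 3 of R+ and Mcm2 in replicate 2 of C+. The share of all genes tested that were lower in all 3 pairs was not computed.

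**Figure D4:**
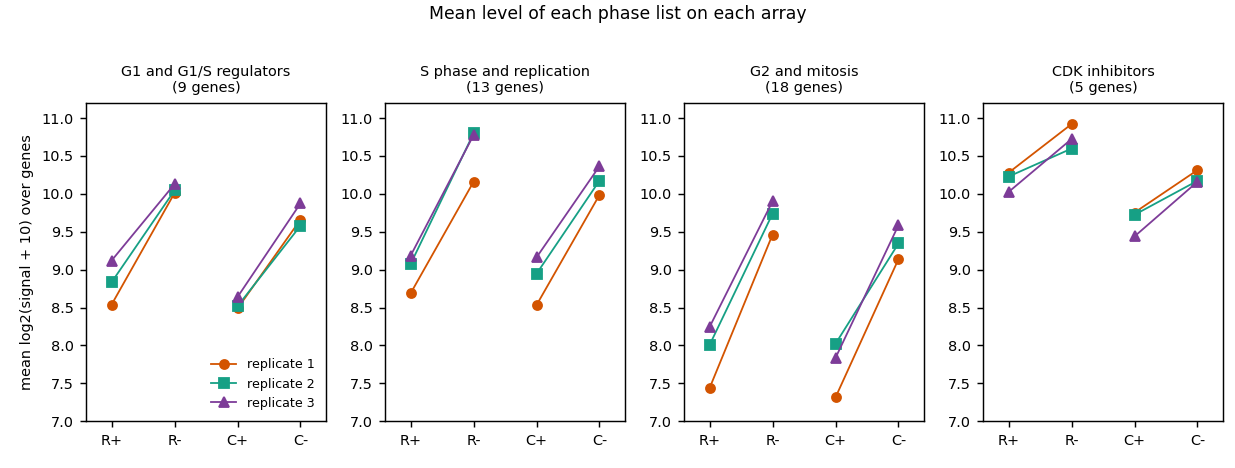
Mean of log2(signal + 10) over the measured genes of each list on each array, with lines joining the YFP-positive and YFP-negative array of a domain with the same replicate number. Every line runs up from R+ to R- and from C+ to C-, and the lines of the inhibitors are the flattest; in the S phase and the G2 and mitosis lists replicate 1 is the lowest of its population.

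Replicate 1 was low for many of these genes. It was the lowest of the 3 arrays in all 4 populations for 16 of 45 members (35.6%), among them Mki67, Rrm2, Cdc20 and Top2a, against 18.6% of all genes tested. For Cdkn1c and Cdkn2d, 2 of 45 members (4.44%), it was the highest in all 4, against 9.74% of all genes. Replicate 3 was the highest in all 4 for 7 of 45 members (15.6%), among them Ccnd1, Ccnd2 and Ccnb2, against 3.64% of all genes. What set these replicates apart was not tested.

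The caudal differences resembled the rostral ones gene by gene. Across the 45 genes, which are not independent replicates, the differences of R+ against R- and of C+ against C- had a Pearson correlation of 0.879 and a Spearman correlation of 0.864, and the 2 comparisons share no arrays. There were 32 members called lower in both domains, 6 in R+ alone (Aurkb, Ccnd2, Cdc6, Cdkn1a, Mcm4 and Mcm6), 2 in C+ alone (Ccnd3 and Cdkn1c) and 5 in neither (Ccne1, Ccne2, Cdkn1b, Cdkn2d and Mcm2). With the replicate block, Aurkb, Ccnd2, Cdc6, Mcm4 and Mcm6 were also called in C+ and Cdkn1c also in R+. The difference was more negative in the rostral domain for 37 of 45 members, and for 6581 of all 12845 genes tested. The test of the difference between the domains, (R+ minus R-) minus (C+ minus C-), called 0 of 45 members, where it called 1.17% of all genes, and 2 members had an unadjusted p under 0.05. The value furthest from 0 was that of Cdkn1c, 0.76 ± 0.36 (adjusted p = 0.696), which the replicate block alone called (adjusted p = 0.0245), as it did 2.65% of all genes.

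Between the domains, Ccnd1 and Ccnd2 were higher rostrally in YFP-positive and YFP-negative cells, and Ccnd3 was not called. In R+ against C+, 3 members were called higher and 0 lower, where 2.83% of all genes were called higher and 4.48% lower, and the median member differed by 0.20. All 3 R+ arrays lay above all 3 C+ arrays for 7 members, against 10.1% of all genes. In R- against C-, 2 members were called higher and 0 lower, where 1.05% of all genes were called higher and 1.78% lower, and the median member differed by 0.40. All 3 R- arrays lay above all 3 C- arrays for 16 members, against 8.39% of all genes. Ccnd1 and Ccnd2 were called in both comparisons and Pcna in R+ against C+.

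Ccnd1, by the signals given above, was higher in R+ than in C+ by 0.75 ± 0.16 (adjusted p = 0.01) and in R- than in C- by 0.91 ± 0.16 (adjusted p = 0.00407). Ccnd2 (1434745_at), cyclin D2, had signals of 1779, 3048 and 3794 in R+, against 674, 1183 and 1488 in C+, and 4210, 6183 and 6446 in R-, against 1393, 1555 and 2092 in C-. All rostral arrays lay above the caudal arrays of the same sort, and the differences were 1.36 ± 0.30 (adjusted p = 0.014) and 1.73 ± 0.30 (adjusted p = 0.00421), the largest among the members in both comparisons. Between YFP-positive and YFP-negative cells Ccnd2 was lower in R+, with a difference of -1.01 ± 0.30 (adjusted p = 0.0403, lost in 8 of 23 alternatives), and C+ overlapped C- with a difference of -0.64 ± 0.30 (adjusted p = 0.208). Ccnd3, cyclin D3, had signals of 458, 483 and 509 in R+, against 387, 286 and 263 in C+, and 704, 553 and 792 in R-, against 614, 537 and 768 in C-. The Ccnd3 difference between R+ and C+ was 0.63 ± 0.20 (adjusted p = 0.067) and between R- and C- 0.09 ± 0.20 (adjusted p = 0.881), and between C+ and C- it was called lower (-1.02 ± 0.20, adjusted p = 0.00264). Pcna differed by 0.44 ± 0.12 between R+ and C+ (adjusted p = 0.0409, lost in 13 of 23 alternatives) and by 0.47 ± 0.12 between R- and C- (adjusted p = 0.0534).

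**Figure D5:**
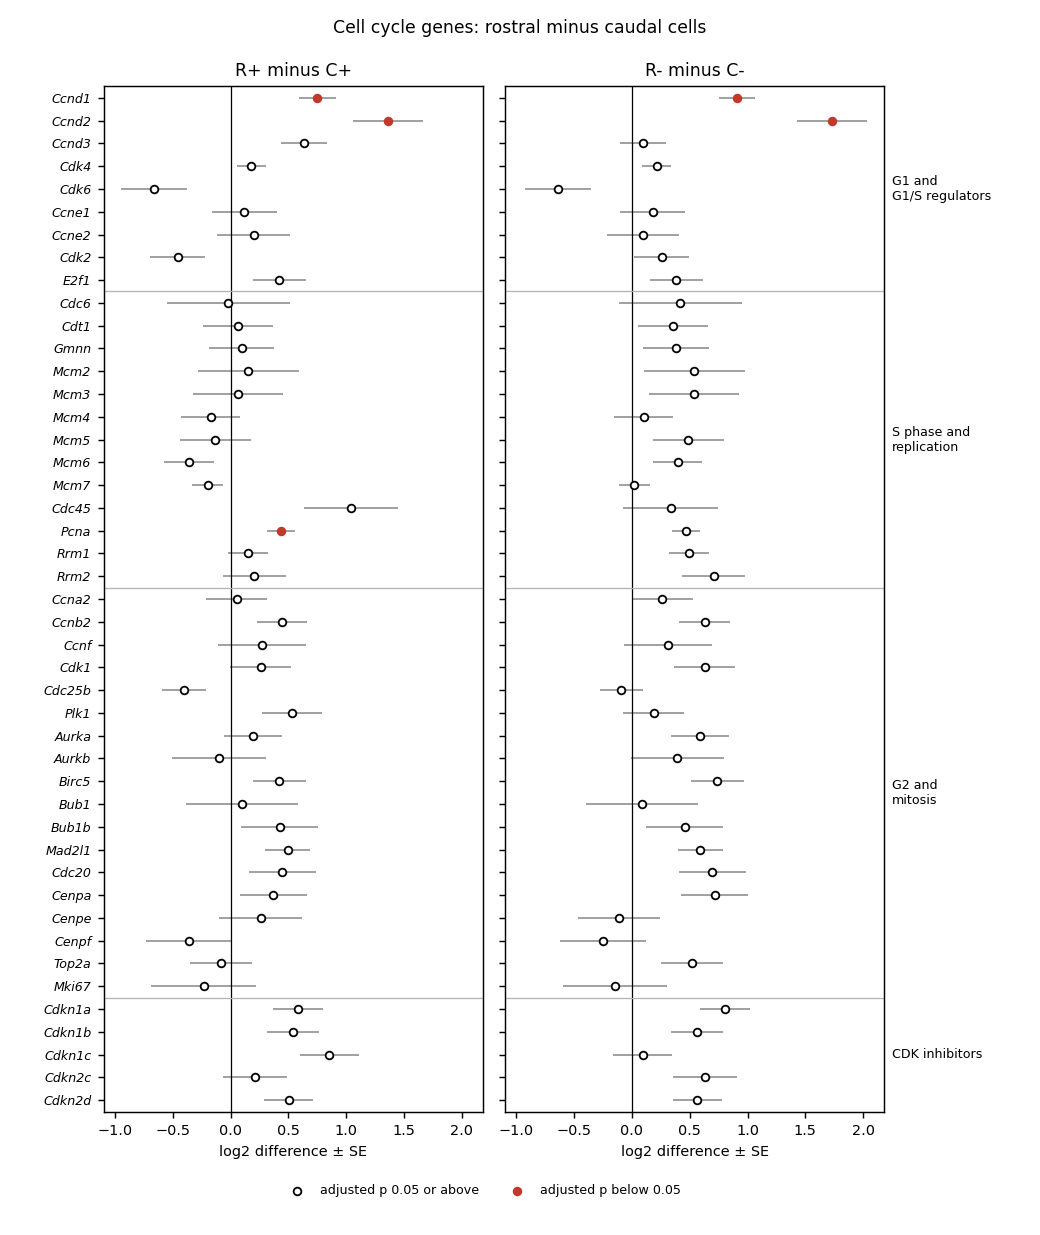
Log2 difference ± SE of the 45 measured cell cycle genes, R+ minus C+ (left) and R- minus C- (right), grouped by list, with filled points for an adjusted p under 0.05. Ccnd1 and Ccnd2 are filled in both panels and Pcna in the left one; 33 points on the left and 40 on the right lie above 0.

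These counts moved with the fit. With the replicate block, 10 members were higher in R+ than in C+ (9.44% of all genes), adding Ccnd3, Mad2l1, Cdc20, Cdkn1a, Cdkn1b, Cdkn1c and Cdkn2d. With the block 15 members were higher in R- than in C- (4.46% of all genes), adding Pcna, Rrm1, Rrm2, Ccnb2, Birc5, Mad2l1, Cdc20, Cenpa, Top2a, Cdkn1a, Cdkn1b, Cdkn2c and Cdkn2d. The signal of the 3′ beta-actin control probe set divided by that of the 5′ one, a measure of RNA integrity, ranged from 2.64 to 4.39 on the rostral and from 4.52 to 7.69 on the caudal arrays, so that it moved with the domain. With its log2 as a covariate Ccnd2 was the 1 member still called in R+ against C+, where 92 of all 12845 genes were called higher and 124 lower. In R- against C- 7 members were called higher with it (Ccnd1, Ccnd2, Cdt1, Mcm3, Rrm2, Cdc20 and Top2a), where 111 of all genes were called higher and 105 lower. The same covariate put the median of the G2 and mitosis genes at 0.74 in R+ against C+ (0.26 without it) and at 0.93 in R- against C- (0.43 without it). It put the median of all genes at 0.08 and 0.06 (-0.05 and -0.04 without it). In R+ against C+, 0 members were called without R+ replicate 3, 1 without C+ replicate 2 and 6 without C+ replicate 1, and in R- against C- 4 were called without R- replicate 2. Of all genes, 391, 385 and 1744 were called in these 3 fits of R+ against C+. In R- against C- the fits without 1 array called 198 to 439 of all genes.

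Further cell cycle genes, from lists made for the same phases, fell as well. Of 47 other mitosis genes 37 were called lower in R+ and 34 in C+, and 0 were called higher. Over all genes tested, 7.86% were called lower in R+ against R- and 7.39% in C+ against C-. The genes named by fitted difference were Ndc80 of the kinetochore (-2.95 ± 0.59) and Kif23, a motor of cytokinesis (-2.61 ± 0.37), in R+. In C+ they were Cdc25c, a phosphatase that activates CDK1 (-2.97 ± 0.56), and Kif23 (-2.81 ± 0.37). Of 37 other replication genes 24 were called lower in R+ and 17 in C+, and 0 were called higher. Named in R+ were Tk1, thymidine kinase (-3.33 ± 0.65), and Pole, a DNA polymerase subunit (-2.38 ± 0.49). Named in C+ were Pole (-3.04 ± 0.49) and Gins2 of the replicative helicase (-2.17 ± 0.43). Most of these genes were dim in YFP-positive cells and are not shown to be above background there, so the size and order of their differences are uncertain. Tk1 was at 13, 8 and 157 in R+, against 381, 273 and 624 in R-, and Pole at 19, 24 and 26 in C+, against 273, 240 and 271 in C-. Ndc80 was at 18, 12 and 16 in R+, against 163, 217 and 178 in R-, and Cdc25c at 3, 18 and 7 in C+, against 144, 82 and 201 in C-. Kif23 was at 41, 41 and 42 in R+, against 232, 330 and 366 in R-, and at 18, 16 and 17 in C+, against 143, 176 and 228 in C-. The YFP-positive signals given here for Ndc80, Cdc25c and Kif23 lay under the arrays' median signal and below every YFP-negative array of their domain. Ndc80, Cdc25c and Kif23 passed the filter through YFP-negative arrays alone, so their calls are not independent of the filter.

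Of 36 other cell cycle regulators, 11 were called lower and 0 higher in R+, and 10 were called lower and 1 higher in C+. Over all genes tested, 7.86% were called lower and 4.34% higher in R+, and 7.39% and 5.71% in C+. E2f8, an E2F repressor, was lower in both (-3.20 ± 0.45 and -3.09 ± 0.45), with signals of 25, 18 and 8 in R+, against 221, 251 and 216 in R-, and 11, 20 and 31 in C+, against 190, 255 and 292 in C-. Its YFP-positive signals lay far under the arrays' median and are not shown to be above background, so the size of the difference is uncertain. E2f8 passed the filter through YFP-negative arrays alone, so its calls are not independent of the filter. The growth arrest gene Gadd45g was called lower in R+ (-2.04 ± 0.25) and in C+ (-1.92 ± 0.25). Its relative Gadd45b, also dim, was called lower in C+ (-2.24 ± 0.51) and was not called in R+ (-0.82 ± 0.51). Gadd45b, too, passed the filter through YFP-negative arrays alone, so its call in C+ is not independent of the filter. The gene higher in C+ was E2f6, a repressor of the E2F family (1.00 ± 0.16, adjusted p = 0.000422). Between the domains, Myc, a transcription factor that promotes growth, was at 179, 181 and 213 in R+, against 518, 440 and 655 in C+, and at 247, 213 and 161 in R-, against 381, 361 and 419 in C-. All rostral Myc signals lay below all caudal ones, with differences of -1.43 ± 0.21 (adjusted p = 0.000785) and -0.89 ± 0.21 (adjusted p = 0.0364), the second of which was lost in 9 of 23 alternatives. Racgap1 of the cytokinesis machinery was lower in R+ than in C+ (-0.99 ± 0.20, adjusted p = 0.00863), as was E2f5 (-0.62 ± 0.17, adjusted p = 0.0371). The replication genes Pold2 (0.72 ± 0.17) and Dut (0.53 ± 0.13) and the securin gene Pttg1 (0.68 ± 0.17) were higher in R- than in C- (adjusted p = 0.0367, 0.0442 and 0.0447).

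Markers of other cells moved with the same comparisons. The sample titles name R- and C- as neurons and the design text as cells, and both held signal of neural progenitor and red blood cell markers. For the marker counts, the shares over all genes tested were 7.86% called lower and 4.34% higher in R+, and 7.39% and 5.71% in C+. Of 14 neural progenitor markers 13 were called lower and 1, Sox1, higher in R+, and 10 were called lower and Sox1 higher in C+. Their summed signal was 24316 to 26223 in R+, against 58644 to 68476 in R-, and 25984 to 32272 in C+, against 57022 to 61092 in C-. Of 5 red blood cell markers 4 were called lower in R+ and 5 in C+, with sums of 8780 to 15665 in R+, against 45282 to 59386 in R-, and 4797 to 8712 in C+, against 40649 to 45165 in C-. The sums of 14 general neuron markers overlapped, at 123068 to 156084 in R+, against 105816 to 142790 in R-, and 111898 to 145912 in C+, against 123722 to 149028 in C-. Single neuron markers went both ways: in each domain 3 were called higher (Syt1 by 2.37 and 1.83, Snap25 and Elavl4) and 3 lower (Nefl at -1.33 and -1.23, Nefm at -1.43 and -1.18, Rbfox3 at -0.63 and -1.37). The sums of 9 serotonin neuron markers matched the sort, at 78710 to 86045 in R+, against 4782 to 5165 in R-, and 53873 to 58401 in C+, against 2265 to 3368 in C-.

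The remaining lists had smaller sums. Those of 7 endothelial markers were 714 to 946 in R+, against 888 to 1114 in R-, and 746 to 957 in C+, against 1286 to 1804 in C-, with 0 of 7 called in R+ and 2 called lower in C+ (Kdr and Cldn5). Those of 7 macrophage and microglia markers were 1395 to 2840 in R+, against 1190 to 1662 in R-, and 910 to 1030 in C+, against 986 to 1432 in C-, with Lyz2 called higher in R+ (2.47) and Csf1r called lower in C+ (-0.94). Those of 8 mesenchyme and pericyte markers were 772 to 1131 in R+, against 1619 to 2187 in R-, and 3390 to 3674 in C+, against 3607 to 4670 in C-. In R+ 4 of these 8 were called lower and 0 higher. In C+ 7 of 8 were lower, 4 of them called (Col1a2, Col3a1, Pdgfrb and Rgs5, at -1.15 to -2.18), and Dcn was called higher, with a mean signal of 2345 in C+, against 417 in C-, so that 1 gene made up most of the C+ sum. No measured marker was listed at 0 on all 3 arrays of a population, and the part of any of these cells in the cell cycle differences was not tested.

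Other probe sets of the members gave the same direction in most cases. Of 36 further probe sets of 25 members past the filter, 33 were lower in R+ and 19 of them were called lower, and 36 were lower in C+ with 20 called lower, and 0 were called higher in either domain. The share of all kept probe sets called in the same fit was not computed. The 3 that were above 0 in R+ against R- were dim probe sets of Mcm3, Cenpf and Cdkn1b, and none was called. All 4 further Ccnd2 probe sets had larger differences between R+ and C+ than the one used, at 1.91 to 2.24, and were called higher.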

How the data were processed

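The deposited values are signal intensities on a linear scale, in whole numbers, computed with MAS5 per the submitters' processing notes, whose version and settings are not stated there. Without the lowest and highest 2% of its values every array averaged 500, so the authors had scaled the arrays alike. Detection calls were not used. Of 45101 probe sets, 64 controls were left out, 34945 had 1 gene symbol and 932 had several. Of the probe sets with 1 symbol, 34741 had a gene found in RefSeq (GRCm38.p6), and 0 of these symbols changed. A probe set was kept if its signal exceeded 107, the overall median, on 3 or more arrays, and a gene took its brightest kept probe set, avoiding those ending in _x_at where another was kept.

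The log2 values are log2(deposited signal + 10), with the offset at the 10th percentile of the data, and understate differences of dim genes. One mean per population was fitted over all 12 arrays with limma 3.58.1 in R 4.3.3 (eBayes with a trend, two-sided, Benjamini-Hochberg adjustment over 12845 genes per contrast). Other probe sets were adjusted in a fit of all kept probe sets. The procedure was tested on simulated data. The members, lists and tests were chosen with earlier results of these data known. Any member could be named, and of the other cell cycle lists up to 2 genes per direction with the largest difference among those called.

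Deviations from the population means correlated at 0.118 to 0.52 in all 18 pairs of arrays with the same replicate number, and at -0.398 to 0.273 in the 36 other pairs from different populations. The numbers given in the labels were thus taken to pair the arrays in the replicate block and in the differences within pairs. The main fit, which gave the calls unless the block is named, left this pairing out. The alternatives were the offset, the filter, the scaling, the choice of probe sets, the trend, the arrays fitted, the replicate block, the actin ratio as a covariate and leaving out each array. No pair of arrays held identical values.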

Additional observations from a re-analysis of the deposited data

Results flagged for a closer look

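E2f6, a repressor of the E2F family among the other cell cycle regulators, differed between YFP-positive and YFP-negative cells in another way in each domain, by a test of the difference itself. Its signals were 1060, 850 and 1029 in R+, against 917, 1146 and 1014 in R-, and 1553, 1304 and 1424 in C+, against 713, 620 and 804 in C-. The rostral arrays overlapped and the caudal arrays did not. The difference of differences, (R+ minus R-) minus (C+ minus C-), was -1.06 ± 0.22 (adjusted p = 0.026). Over 22 alternatives it ranged from -1.16 to -0.96 with adjusted p from 0.00513 to 0.25, and it missed the threshold in 10 of them, among them the mean of the gene's probe sets and several fits that left out 1 array.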

How the results depend on the processing

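Over 23 alternatives (22 for the difference of differences), 0 member differences reversed while called; 31 of 38 called members kept their call in R+ against R- in every one of these alternatives, 28 of 34 in C+ against C-, 0 of 3 in R+ against C+ and 2 of 2 in R- against C-. Members called ranged, leaving out 1 array at a time, from 32 to 39 in R+ against R-, 28 to 36 in C+ against C-, 0 to 6 in R+ against C+, 2 to 4 in R- against C- and 0 to 0 in the difference of differences. All genes called ranged in the same fits from 1048 to 1771, 1193 to 1872, 385 to 1744, 198 to 439 and 103 to 182, against 1567, 1683, 940, 363 and 150 with all arrays. The further probe sets called with their gene, of genes called, ranged from 11 to 20 (lowest without R- replicate 3), 9 to 17 (lowest without C- replicate 3), 0 to 5 (0 without R+ replicate 3), 4 to 5 and 0 to 0, against 17, 16, 4, 5 and 0. For all genes in R+ against C+, leaving out R+ replicate 1, R+ replicate 3, C+ replicate 2 or C+ replicate 3 gave 503, 391, 385 and 402, and leaving out C+ replicate 1 gave 1744. In R- against C- leaving out R- replicate 3, C- replicate 2 or C- replicate 3 gave 198, 238 and 220. The replicate block raised the genes called to 2684, 2929, 2795, 1310 and 340, the members called to 10 in R+ against C+, 15 in R- against C- and 1 in the difference of differences, and the further probe sets to 26 in R+ against R- and 25 in C+ against C-. The actin ratio as a covariate gave 1 member and 216 genes in R+ against C+, and 7 members, 216 genes and 3 further probe sets in R- against C-. The genes called in R+ against C+ fell to 507 with arrays scaled to one median, 609 without a trend and 605 with the arrays of R+ and C+ alone. Scaling to one median moved the share of higher calls from 43.6% to 52.7% in C+ against C-, from 37.2% to 51.8% in R- against C- and, in the difference of differences, from 63 higher and 87 lower to 38 higher and 82 lower. The actin covariate put the share of higher calls at 51.4% in R- against C-. The cause of these changes was not tested. Members such as Cdk6, Cdc6, Cdc45, Ccnf, Aurkb, Bub1 and Cenpe had YFP-positive signals near or under the arrays' medians, so the size of their differences is uncertain.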
